A study of Mus musculus with 63 samples.

Results

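The pituitaries of young female mice after the 12-week schedule of chronic unpredictable mild stress (CUMS) are described here across genes. CUMS exposes animals to a changing series of mild stressors. The set was chosen by sample title. It holds 8 of the 63 libraries of the series: 4 titled 2M-12W-Pit-CUMS and 4 titled 2M-12W-Pit-Ctrl, which are unstressed controls. The mice were C57BL/6 with no transgene named in the labels, and the titles are read as an age of 2 months and a duration of 12 weeks in both groups. The titles do not say whether this is the age at the start of the schedule or at collection. The series also has 24 other pituitary libraries (8 each of the sets 2M-8W, 6M-8W and 6M-12W, with their own controls) and ovaries of the same sets, which are not used here. The series' design text pairs the younger age with the shorter schedule and the older age with the longer one, whereas the titles cross ages with durations; the titles were followed. Which lobes were taken, the stage of the estrous cycle, the hour of collection, and whether control and stressed animals were collected or sequenced together are not given in these sources. Each library was taken as 1 sample of its group. The p-values measure the spread between libraries of a group, estimated over all 32 pituitary libraries and not over the 8 of this set alone. The labels do not say that replicates came from separate animals, so this spread may be technical.

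The anterior pituitary holds hormone cells of several types. Corticotropes release corticotropin, cut from the precursor Pomc, when the hypothalamus sends corticotropin-releasing hormone, and the adrenal glucocorticoid that follows feeds back on them. Pituitary cells also carry a circadian clock, in which Arntl (BMAL1) with Clock or Npas2 binds E-box sequences and switches on Per, Cry, Nr1d and Dbp genes, and the products of Per, Cry and Nr1d in turn repress that drive or Arntl itself.

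Of 17001 genes tested, 99 (0.582%) passed edgeR's quasi-likelihood test at an adjusted p under 0.05. Transcripts of 66 genes (0.388%) were higher after stress and those of 33 (0.194%) lower. Members of 3 clock lists, a small part of the genes measured, made up 11 of the 99, and Nr1d1, Arntl and Dbp had the smallest adjusted p among the genes named here. The folds of the higher genes, as log2 of stressed over control, ran from 0.32 to 2.997 with a median of 0.77, and those of the lower genes from -7.77 to -0.23 with a median of -0.74. A fold of 1 or more was reached by 22 of the higher genes, and one of -1 or less by 9 of the lower. Over all genes the median fold was -0.0016, with 8424 of 17001 above 0. All 4 stressed libraries lay above all 4 controls for 62 of the 66 higher genes, against 793 of all genes tested (4.66%), and below them for 30 of the 33 lower genes, against 698 of all (4.11%); in all, the groups did not overlap for 8.77% of genes. Since the test chose these genes on the same libraries, the 2 counts describe the calls and lend them no support. At an unadjusted p under 0.05 stood 1726 of the 17001 genes, 927 above and 799 below 0. The list counts at that limit given below are to be read beside this share.

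**Figure D1:**
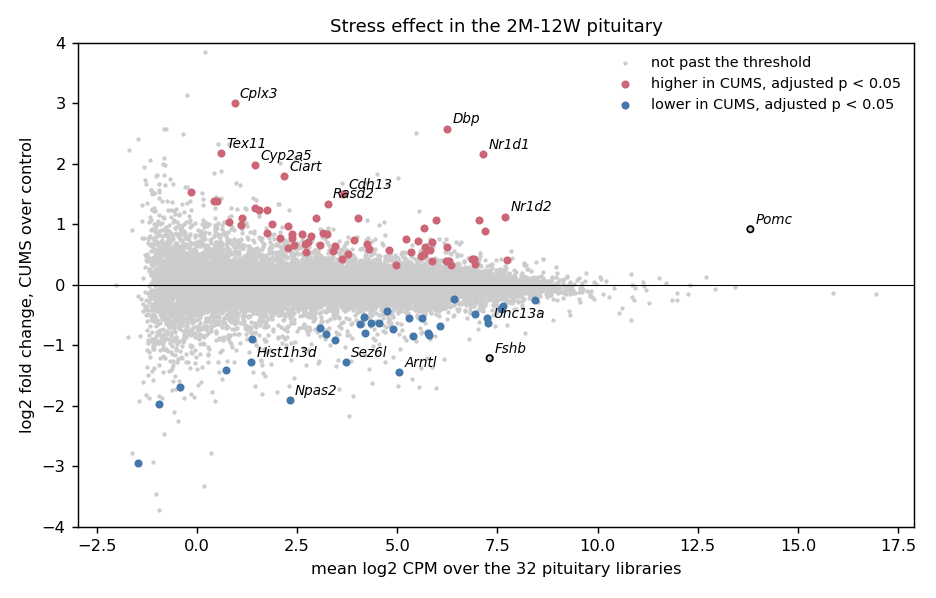
Log2 fold change (CUMS over control, vertical axis) against mean log2 CPM over the 32 pituitary libraries (horizontal axis; CPM are counts scaled to a common library total), 1 point per gene tested; coloured points passed the test and open black circles mark Pomc and Fshb, which did not. Cplx3 (2.997), Dbp (2.58), Tex11 (2.17) and Nr1d1 (2.16) stand highest among the labelled genes and Npas2 (-1.91) lowest. Outside the plot lie 7 genes with a fold of 4 or more in either direction, Bpifb1 among them.

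The number of calls rested on single libraries. It was 178 without control 1, 35 without control 2, 41 without control 3, 48 without control 4, 56 without CUMS 1, 42 without CUMS 2, 34 without CUMS 3 and 91 without CUMS 4. It was 186 when controls 3 and 4 of the 6M-12W set, which are not in this comparison but share its fit, were left out. The fold of each of the 99 genes kept its direction in each of these fits. Control 1 had the highest total count of the 8 (24924584; the other 7 had 15946507 to 19665891), and of the 4 controls it was the nearest to the stressed libraries for 42 of the 66 higher and 20 of the 33 lower genes. The mitochondrial genome gave 3.12 to 3.41% of the counts in controls and 2.74 to 3.14% in stressed libraries (two-sided exact permutation p = 0.171; the smallest p that 4 against 4 allows is 0.0286). None of the 28 pairs of these 8 libraries agreed within counting noise. Prl and Gh, the prolactin and growth hormone genes, had by far the highest levels of the pituitary hormone genes per kilobase, with control means of 88785 and 83052 FPKM.

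The clock genes that passed in edgeR went in opposite directions by role. The repressor Cry1, just short of the threshold, had a fold of -0.81, on the side of the activators that fell. Of 22 genes in 3 clock lists (activators, repressors, and output factors), 9 rose and 2 fell, where 0.388% of all genes tested rose and 0.194% fell. The 2 that fell were both among 5 activators, and the 9 that rose were 6 of 10 repressors and 3 of 7 output factors. For the repressors, or negative limb, the median fold was 0.80, and for the activators -0.30. The promoters of the rising members are shown first, since several hold the letters that the clock's activator pair or its output factors are known to bind. RefSeq entries for GRCm38.p6 gave the 250 bases before the annotated start for 8 of the 9 rising clock genes and 2 of the 2 falling ones. In the following windows, printed 5′ to 3′ on the gene's strand, capitals mark an E-box (CACGTG) in Ciart, Tef and Bhlhe41 and a D-box (TTATGTAA) in Per3, each searched on both strands.
Ciart: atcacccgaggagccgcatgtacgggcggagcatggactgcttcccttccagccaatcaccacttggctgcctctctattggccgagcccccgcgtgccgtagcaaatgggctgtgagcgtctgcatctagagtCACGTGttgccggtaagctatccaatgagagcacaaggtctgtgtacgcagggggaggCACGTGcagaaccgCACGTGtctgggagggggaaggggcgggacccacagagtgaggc
Tef, upstream start: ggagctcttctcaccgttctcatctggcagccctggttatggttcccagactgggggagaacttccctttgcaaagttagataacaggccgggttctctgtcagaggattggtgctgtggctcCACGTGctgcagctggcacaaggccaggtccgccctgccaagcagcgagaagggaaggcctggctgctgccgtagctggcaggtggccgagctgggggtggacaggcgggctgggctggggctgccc
Tef, downstream start: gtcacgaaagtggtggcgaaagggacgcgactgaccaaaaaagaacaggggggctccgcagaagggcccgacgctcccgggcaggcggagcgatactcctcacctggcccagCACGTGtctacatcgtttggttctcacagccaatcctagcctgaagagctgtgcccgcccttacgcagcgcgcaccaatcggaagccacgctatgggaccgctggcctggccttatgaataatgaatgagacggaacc
Bhlhe41: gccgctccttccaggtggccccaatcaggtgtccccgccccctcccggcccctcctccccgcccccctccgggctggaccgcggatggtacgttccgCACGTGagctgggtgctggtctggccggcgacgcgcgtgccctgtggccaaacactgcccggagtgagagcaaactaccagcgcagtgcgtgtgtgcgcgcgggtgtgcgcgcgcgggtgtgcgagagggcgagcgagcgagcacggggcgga
Per3: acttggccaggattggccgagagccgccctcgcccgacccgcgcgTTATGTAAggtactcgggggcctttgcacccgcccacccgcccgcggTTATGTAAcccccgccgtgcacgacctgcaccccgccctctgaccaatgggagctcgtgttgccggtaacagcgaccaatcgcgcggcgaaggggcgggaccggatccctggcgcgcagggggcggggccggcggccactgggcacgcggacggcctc
The windows lie at chr3:95882229-95882478 (minus strand, Ciart), chr15:81802423-81802672 and chr15:81811164-81811413 (plus, Tef), chr6:145865421-145865670 (minus, Bhlhe41) and chr4:151044666-151044915 (minus, Per3). Ciart has 3 E-boxes, at 116, 58 and 44 bases before its start. Each Tef window has 1, at 127 and 138 bases, and Bhlhe41 has 1 at 153 bases. The D-boxes of Per3 lie 205 and 158 bases before its start. An E-box was present in 7.83% of the 15318 windows of all genes tested, in 9 of 61 windows (14.8%) of genes that rose and in 0 of 20 windows of genes that fell. The D-box letters were in 0.522% of all windows. The other rising clock genes with an entry (Nr1d1, Dbp, Nr1d2, Usp2) hold neither in the window searched. Other letters were searched too. The glucocorticoid element core (ACANNNTGT) was in 3.88% of all windows, 6 of 61 (9.84%) of genes that rose and 1 of 20 of genes that fell. For the ROR element core (TAGGTCA) these were 1.57%, 2 of 61 and 1 of 20. For the CRE (TGACGTCA) they were 2.46%, 0 of 61 and 1 of 20, and for the D-box form TTACGTAA 0.144%, 0 of 61 and 0 of 20. Differences between these shares were not tested. A match is a description of letters and not of binding, and letters outside the window were not searched.

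Dbp, a PAR bZIP factor that binds D-boxes and a standard readout of E-box drive, was at 26.8, 16.4, 19.7 and 16.5 CPM (counts scaled to a common library total) in the controls and at 101, 132, 134 and 111 CPM in the stressed libraries. Every stressed library lay far above the highest control. The fold was 2.58 ± 0.21 (SE, adjusted p = 4.27e-09). Nr1d1, which encodes the heme-binding repressor REV-ERB alpha, was at 51.4, 36.2, 35.1 and 44.0 CPM in controls and at 175, 218, 185 and 169 CPM after stress, again without overlap (2.16 ± 0.14, adjusted p = 3.04e-11). Its paralog Nr1d2 rose from 107 ± 11.8 (SD, n = 4) to 233 ± 9.54 CPM (1.13 ± 0.10, adjusted p = 3.31e-08). Ciart, a repressor of the CLOCK and BMAL1 pair, stood at 2.84, 0.701, 1.43 and 1.09 CPM in controls and at 3.86, 5.35, 6.99 and 5.80 CPM after stress; it rose by 1.79 ± 0.26 (adjusted p = 0.000186). Bhlhe41 (DEC2), which competes for E-boxes, rose from 36.3 to 76.4 CPM (1.07 ± 0.12, adjusted p = 3.14e-06), and Tef, the PAR bZIP relative of Dbp, from 78.2 to 164 CPM (1.07 ± 0.14, adjusted p = 2.24e-05). Hlf, the remaining member of the PAR bZIP family, had a fold of 0.30 ± 0.19 and did not pass (adjusted p = 0.671).

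The Period genes, whose proteins form the repressive complex, had folds above 0, of which those of Per2 and Per3 passed. Per3 was at 141, 87.0, 85.0 and 73.2 CPM in controls and at 185, 166, 183 and 178 CPM after stress, with no overlap (0.88 ± 0.16, adjusted p = 0.00435). Per2 was at 36.2, 23.3, 22.0 and 26.2 CPM in controls and at 41.1, 34.1, 47.3 and 55.0 CPM after stress. The lowest stressed library lay below control 1, and the fold of 0.72 ± 0.17 had an adjusted p of 0.0412. Per1, which also responds acutely to glucocorticoid and cAMP signals, overlapped widely, from 92.1 to 216 CPM in controls and from 124 to 236 CPM after stress (0.42 ± 0.28, adjusted p = 0.684). Usp2, which encodes a deubiquitinase under clock control, rose by 0.62 ± 0.15 (adjusted p = 0.0431). The Cryptochromes, partners of the Period proteins, had folds of opposite sign: Cry2 of 0.43 (adjusted p = 0.143) and Cry1 of -0.81 (adjusted p = 0.0522). For Cry1 all stressed libraries (19.8 to 29.6 CPM) were below all controls (36.3 to 48.3 CPM).

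On the activator side, Arntl was at 50.8, 50.8, 55.1 and 63.4 CPM in controls and at 22.9, 17.9, 17.6 and 22.4 CPM after stress. The groups were far apart, and the fold was -1.45 ± 0.12 (adjusted p = 4.05e-09). Npas2, the alternative partner of BMAL1, fell from 8.50 ± 1.47 to 2.26 ± 0.73 CPM (-1.91 ± 0.23, adjusted p = 1.11e-05). Clock itself did not pass (-0.30 ± 0.19, adjusted p = 0.660), nor did the nuclear receptor genes Rora (0.09) and Rorb (0.14). Nfil3, a repressor at D-boxes, had a fold of -0.73 ± 0.24 (adjusted p = 0.209).

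**Figure D2:**
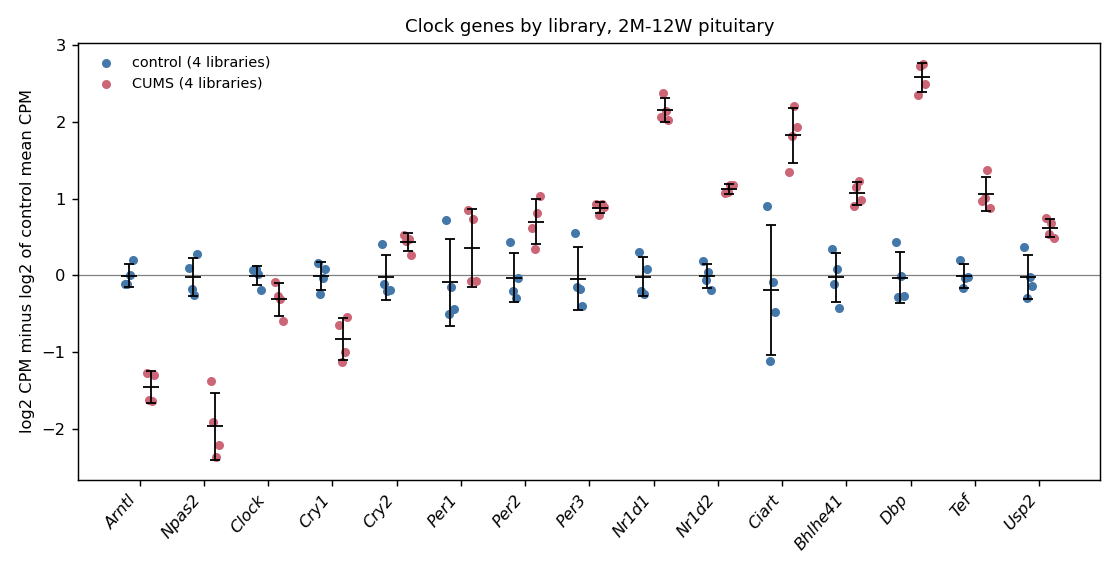
Clock genes in the 8 libraries, as log2 CPM minus the log2 of the control mean (vertical axis); dots are libraries (blue control, red CUMS) and black bars the mean and SD of 4. The groups separate completely for Arntl, Npas2, Cry1, Per3, Nr1d1, Nr1d2, Ciart, Bhlhe41, Dbp, Tef and Usp2, and overlap for Clock, Cry2, Per1 and Per2.

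Dbp, Nr1d1, Nr1d2, Tef, Bhlhe41, Arntl and Npas2 passed in all 15 other fits made. Per2 and Usp2 did not keep their calls. Per2 lost it without control 2, 3 or 4 or CUMS 1, 3 or 4 (adjusted p = 0.0601 to 0.163), and Usp2 without control 2, 3 or 4 or CUMS 1, 2 or 3 (0.0855 to 0.190). Without CUMS 4, Cry1 passed (adjusted p = 0.0475), and without control 1, Cry2 did (0.0152). Cry1 passed in 4 of the 15 other fits, and DESeq2 was among them (adjusted p = 0.00938, lower after stress). Per3 and Ciart missed the threshold only in a fit of these 8 libraries alone (adjusted p = 0.0576 for each). Reads from overlapping genes cannot be told apart unless the counting used strand, which no source used here gives. Nr1d1 shares 1075 bases with Thra on the opposite strand, and Thra had a fold of 0.04 (adjusted p = 0.952). Dbp shares 689 bases with Sphk2 (-0.17, adjusted p = 0.600).

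Genes of the corticotrope axis stood higher in each stressed library without passing the test. Pomc was at 11462, 8966, 7775 and 12038 CPM in controls and at 20505, 21994, 15928 and 17558 CPM after stress. The groups did not overlap, and the fold was 0.92 ± 0.24 with an adjusted p of 0.0720. Tbx19, the factor that specifies the Pomc lineage, was at 62.3, 54.4, 40.2 and 66.7 CPM in controls and at 79.6, 84.4, 74.6 and 85.7 CPM after stress (0.54 ± 0.14, adjusted p = 0.0636). The receptors for the hypothalamic releasing hormones had values of the same kind, with folds of 0.56 ± 0.14 for Crhr1 (adjusted p = 0.0609) and 0.71 ± 0.19 for Avpr1b, the vasopressin receptor (adjusted p = 0.0828). Of the 5 corticotrope markers, 4 therefore had all stressed libraries above all controls, a pattern met by 4.66% of all genes. The fifth, Pcsk1, the protease that cuts the Pomc precursor and is made by several endocrine types, had them all below (162 to 127 CPM, -0.35 ± 0.11, adjusted p = 0.152). The median of the list was 0.56 against -0.0016 over all genes. Among the 5 edgeR called 0, while at an unadjusted p under 0.05 there were 4 above and 1 below 0, and DESeq2 called the 4.

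Pomc passed when control libraries 3 and 4 of the 6M-12W set were left out (adjusted p = 0.0294), with almost the same fold (0.92). Without control 1, Crhr1 (adjusted p = 0.0272) and Tbx19 (0.0466) passed. In bulk tissue, more corticotropes and more RNA per corticotrope cannot be told apart. Pomc is made by melanotropes of the intermediate lobe too. Of 5 melanotrope genes, Pomc included, edgeR called 0 (3 at an unadjusted p under 0.05 and 1, Pomc, with DESeq2), with folds of 0.14 to 0.92 and a median of 0.42. The summed level of 8 posterior-lobe markers was 116 to 215 CPM in controls and 87.7 to 137 CPM after stress, none of them called (1 lower at an unadjusted p under 0.05; 0 with DESeq2). Their part in the Pomc values was not tested.

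**Figure D3:**
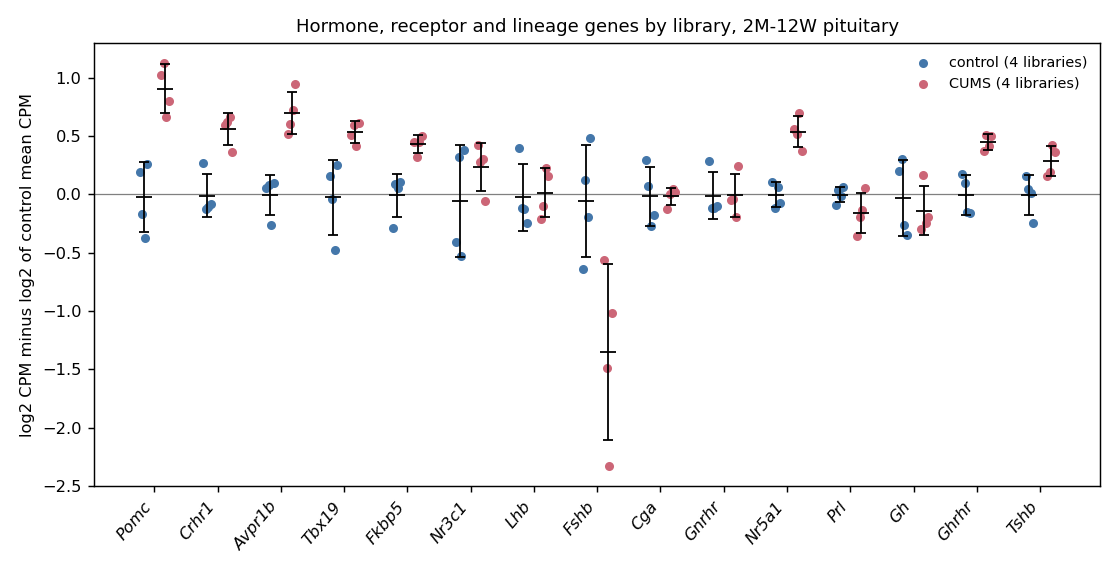
Hormone, receptor and lineage genes in the 8 libraries, on the same scale as the clock plot (log2 CPM minus log2 of the control mean; dots are libraries, black bars mean and SD of 4). All stressed libraries lie above all controls for Pomc, Crhr1, Avpr1b, Tbx19, Fkbp5, Nr5a1, Ghrhr and Tshb, of which only Nr5a1 passed the test.

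Of 24 glucocorticoid-responsive genes, 2 rose (8.33%, against 0.388% of all genes tested) and 0 fell, 17 had folds above 0, and the median was 0.27. Glul, glutamine synthetase, was at 226, 170, 158 and 160 CPM in controls and at 235, 241, 239 and 238 CPM after stress (0.42 ± 0.09, adjusted p = 0.0286). Mt1, a metallothionein, rose by 0.52 ± 0.12 (adjusted p = 0.0431), with control 1 (59.2 CPM) inside the stressed range of 56.1 to 76.6 CPM. Both calls were fragile: Glul lost its call without any 1 of the libraries but control 1 (0.0546 to 0.135), and Mt1 without control 2, 3 or 4 or CUMS 1, 2 or 3 (0.0592 to 0.190). Fkbp5, the receptor co-chaperone that glucocorticoid induces, lay above all controls in each stressed library (46.7 to 61.6 against 71.1 to 80.6 CPM) with a fold of 0.43 ± 0.14 that did not pass (adjusted p = 0.169). Tsc22d3 (GILZ), another standard target, had a fold of 0.01 ± 0.14 (adjusted p = 0.995). The receptor gene itself, Nr3c1, overlapped between groups (0.25 ± 0.24, adjusted p = 0.827). Pdk4, a kinase that slows glucose oxidation, had the largest fold of the list at 1.48 ± 0.38 (adjusted p = 0.0717). At an unadjusted p under 0.05 there were 9 genes above and 1 below 0, and DESeq2 called 4 higher.

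Of 7 gonadotrope markers tested, edgeR called 1, Nr5a1, higher (14.3%, against 0.388% of all genes tested) and 0 lower. DESeq2 also called 1 higher, and 2 stood above 0 at an unadjusted p under 0.05. Foxl2 (0.52 ± 0.18, adjusted p = 0.246) and Tgfbr3l (0.20 ± 0.12, adjusted p = 0.613) did not pass in edgeR, nor did the hormone genes. Nr5a1 (SF-1), the nuclear receptor that sets gonadotrope identity, was at 37.5, 32.1, 36.4 and 33.0 CPM in controls and at 51.2, 49.7, 56.4 and 45.0 CPM after stress. It rose by 0.54 ± 0.11 (adjusted p = 0.0152) and lost its call without control 2, control 4 or CUMS 3 (0.0680 to 0.0844). Fshb, the follicle-stimulating hormone subunit, was at 163, 276, 222 and 355 CPM in controls and at 171, 90.3, 50.4 and 125 CPM after stress. CUMS 1 lay above control 1, and the wide spread gave a fold of -1.21 ± 0.63 with an adjusted p of 0.528. Lhb (0.03), the shared subunit Cga (-0.01) and the receptor Gnrhr (0.00056) had folds near 0, with SEs of 0.15 to 0.16; the sign of these 3 folds changed between fits, in DESeq2 and with RLE scaling for Gnrhr and when single libraries were left out for all 3.

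Genes of the other hormone cells did not pass. Ghrhr, the receptor through which the hypothalamus drives growth hormone release, had all stressed libraries (291 to 319 CPM) above all controls (201 to 254 CPM) with a fold of 0.45 ± 0.14 (adjusted p = 0.168), while Gh had a fold of -0.13 ± 0.14. Prl had one of -0.15 ± 0.12. Tshb, the thyrotropin subunit, was at 109 to 145 CPM in controls and 145 to 174 CPM after stress (0.29 ± 0.17, adjusted p = 0.625). Among 3 lactotrope, 5 somatotrope and 5 thyrotrope markers tested, edgeR and DESeq2 called 0, with 3 genes at an unadjusted p under 0.05.

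Clustered histone genes, many of which are transcribed in dividing cells, had folds below 0 in all but 2 of those tested. The list follows gene names and does not separate genes transcribed only in dividing cells. Of 70 such genes in the table, chosen by the pattern of their names after earlier results were known, 38 were tested. Of these, 36 had folds below 0, and the median was -0.54. Those that fell were 4 (10.5%, against 0.194% of all genes tested): Hist1h4n (-1.69 ± 0.40, adjusted p = 0.0431), Hist1h3f (-1.41 ± 0.33, 0.0393), Hist1h3d (-1.28 ± 0.26, 0.0133) and Hist1h2be (-0.83 ± 0.19, 0.0342). In 15 of the 38 all stressed libraries lay below all controls, against 4.11% of all genes. By class, the 6 H3 genes had a median of -1.31, the 11 H4 and 3 H1 genes one of -0.55 each and the 8 H2A genes one of -0.22, with every fold in these classes below 0. The 10 H2B genes had a median of -0.32 and 8 folds below 0. The levels were low for most, though Hist1h2bc had a control mean of 114 CPM. Hist1h3d was at 3.04, 4.59, 3.80 and 3.999 CPM in controls and at 1.67, 1.35, 1.33 and 1.95 CPM after stress; Hist1h2be, the most abundant of the 4, was at 57.8, 87.7, 92.6 and 58.8 against 41.3, 41.2, 39.2 and 44.9 CPM. Without overlap, the summed level of all 70 genes was 469 to 604 CPM in controls and 379 to 443 CPM in stressed libraries.

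**Figure D4:**
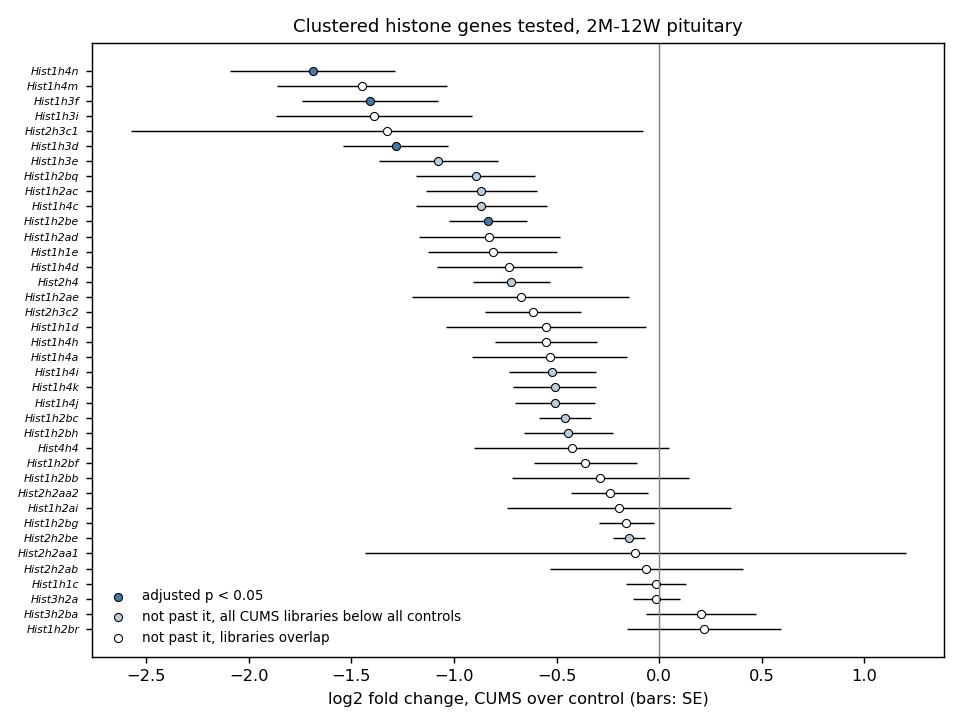
Log2 fold changes (horizontal axis, bars are SE) of the 38 clustered histone genes tested, 1 row per gene; dark blue points passed the test, pale blue points did not pass but had all stressed libraries below all controls, and white points overlapped. Points lie left of 0 for 36 genes, and the 4 that passed lie between -1.69 and -0.83.

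The 4 histone calls depended on single libraries: Hist1h4n and Hist1h3f lost theirs without any 1 library but control 1 (adjusted p = 0.0630 to 0.200 and 0.0657 to 0.229), Hist1h2be without any 1 but controls 1 and 4 (0.0546 to 0.161), and Hist1h3d without control 2, CUMS 2 or CUMS 3 (0.0606 to 0.0702). Many of these genes are near-identical to others of their own class, with 28 of the 38 on chromosome 13, so reads may be shared within a class. Cell-cycle genes had folds on the same side. Of 24, edgeR called 0, 22 were below 0 and the median was -0.82, with 10 at an unadjusted p under 0.05 and 3 called by DESeq2. Top2a, the mitotic topoisomerase, was at 1.36, 7.71, 7.71 and 5.15 CPM in controls and at 2.04, 1.70, 1.87 and 2.01 CPM after stress (-1.51 ± 0.44, adjusted p = 0.119). Control 1 was lower than any stressed library, whereas the other 3 controls were higher than all of them. Kif11 (-1.27 ± 0.35, adjusted p = 0.0923) and Ccna2 (-0.86 ± 0.23, adjusted p = 0.0802) had no overlap.

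Among genes of regulated exocytosis, a few changed, in both directions. Cplx3, which encodes a complexin that clamps and primes the fusion machinery and is known from retinal ribbon synapses, had the highest fold of all genes that passed. It is below the abundance limit for named genes and was picked after its values were seen. Cplx3 was at 0.681, 0.319, 0.330 and 0.485 CPM in controls and at 4.02, 3.65, 4.21 and 3.27 CPM after stress (2.997 ± 0.34, adjusted p = 3.14e-06), and it passed in all 15 other fits. Its promoter window, chr9:57606282-57606531 on the minus strand, is shown because it holds 2 E-boxes (capitals), at 85 and 55 bases before the start.
Cplx3: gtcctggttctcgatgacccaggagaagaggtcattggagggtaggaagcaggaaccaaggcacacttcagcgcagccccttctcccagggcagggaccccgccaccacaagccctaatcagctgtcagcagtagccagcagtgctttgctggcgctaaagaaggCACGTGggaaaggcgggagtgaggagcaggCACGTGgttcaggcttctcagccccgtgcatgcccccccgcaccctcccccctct
Unc13a (Munc13-1), the vesicle priming factor, moved the other way. It was at 165, 203, 197 and 175 CPM in controls and at 110, 127, 114 and 124 CPM after stress (-0.64 ± 0.09, adjusted p = 0.000131), and passed in all 15 other fits. Doc2b, a calcium sensor for secretion, rose from 9.26 ± 2.29 to 19.8 ± 3.87 CPM (1.10 ± 0.21, adjusted p = 0.00941) and missed the threshold without control 4 (0.0555). In the list of 12 exocytosis genes, Doc2b rose and Unc13a fell (8.33% each, against 0.388% and 0.194% of all genes tested). No other member passed, and the median fold was 0.0015. Rims3, a presynaptic scaffold gene outside the list, also picked after its values were seen, rose by 0.68 ± 0.15 (adjusted p = 0.0283). Whether Rims3 kept its call in the other fits was not checked.

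Other genes with large rises were receptors, enzymes and surface proteins at modest levels. Cyp2a5, a cytochrome P450 of coumarin and nicotine oxidation, rose from 0.855 ± 0.95 to 3.40 ± 1.15 CPM (1.97 ± 0.46, adjusted p = 0.0419). Cdh13, a GPI-anchored cadherin, was at 4.97, 5.74, 5.78 and 8.00 CPM in controls and at 21.4, 20.2, 12.2 and 14.8 CPM after stress (1.49 ± 0.27, adjusted p = 0.00572). Rasd2 (Rhes), a small G protein related to a dexamethasone-induced Ras, rose from 5.57 ± 1.08 to 14.2 ± 1.61 CPM (1.34 ± 0.19, adjusted p = 0.000129), and Tspan4, a tetraspanin, from 4.34 ± 0.30 to 9.32 ± 0.35 CPM (1.10 ± 0.15, adjusted p = 5.37e-05). The kinesin Kif12 rose by 1.23 and the histamine autoreceptor Hrh3 by 1.10 (adjusted p = 0.0173 and 0.0459). Por, the reductase that feeds electrons to P450 enzymes, rose by a small but even 0.35 ± 0.07 (99.1 to 106 CPM in controls, 123 to 134 CPM after stress, adjusted p = 0.00918). Tex11, a meiotic gene on the X chromosome with levels below the limit for named genes, went from 0.416 to 1.92 CPM (2.17 ± 0.28, adjusted p = 2.24e-05).

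Genes that fell encode proteins of varied kinds. Sez6l, a brain transmembrane protein gene, was at 11.4, 16.6, 18.3 and 15.3 CPM in controls and at 4.28, 6.20, 8.43 and 6.43 CPM after stress (-1.28 ± 0.24, adjusted p = 0.00933). Aplnr, the apelin receptor, fell from 23.5 to 13.4 CPM (-0.80 ± 0.16, adjusted p = 0.0152), and Ehf, an epithelial ETS factor, from 30.3 to 18.1 CPM (-0.74 ± 0.15, adjusted p = 0.0128). Nell2, a secreted neural glycoprotein (-0.85 ± 0.19), the collagen gene Col16a1 (-0.80 ± 0.19), the fucosyltransferase Fut2 (-0.82 ± 0.19) and Smco2 (-0.92 ± 0.21) had adjusted p of 0.0295 to 0.0431. Zcchc12, a zinc-finger co-activator gene, fell from 186 ± 29.4 to 127 ± 6.92 CPM (-0.55 ± 0.10, adjusted p = 0.00392). The lowest fold of all, that of Bpifb1 (-7.77), rested on control 1, at 38.6 CPM when the other controls had 0 to 1.21 and the stressed libraries 0 to 0.160; without that library the adjusted p was 0.387.

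Of the genes in the last 2 paragraphs, Cdh13, Rasd2, Tspan4, Tex11 and Sez6l passed in all 15 other fits. Zcchc12 passed in 14 of the 15 (highest adjusted p = 0.0509) and kept its call without any 1 library. The losses named next are those without 1 library, and other fits ended some calls too. Cyp2a5 missed the threshold in 8 of the 15 fits and Kif12 in 6. Cyp2a5 lost its call without controls 1, 2 or 4 or CUMS 1, 2 or 3 (adjusted p = 0.0592 to 0.173), Hrh3 without controls 2, 3 or 4 or CUMS 1, 2 or 3 (0.0953 to 0.189), and Kif12 without controls 2, 3 or 4 or CUMS 2 or 3 (0.0607 to 0.105). Por lost it without CUMS 3 (0.0515). Among those that fell, Col16a1 lost it without any 1 but control 1 (0.0821 to 0.181), Fut2 and Nell2 without controls 2, 3 or 4 or CUMS 1, 2 or 3 (0.0847 to 0.235 and 0.0603 to 0.157), Smco2 without control 2 or 3 or CUMS 1, 3 or 4 (0.0655 to 0.158), Aplnr without control 2 or CUMS 1 or 3 (0.0592 to 0.0826), and Ehf without control 2 or CUMS 2 (0.0578 and 0.0603). Bpifb1 also lost it without any 1 stressed library (0.0682 at the lowest).

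Lists for other cell types and stress pathways held few or no calls. Of 10 endothelial markers all had folds below 0 (median -0.11), though edgeR called 0 (1 at an unadjusted p under 0.05; 0 with DESeq2). Vwf, the endothelial clotting factor gene outside that list and picked after its values were seen, went the other way, from 3.84 to 7.60 CPM (0.98 ± 0.19, adjusted p = 0.00952; lost without control 2, control 3 or CUMS 3, at 0.0558 to 0.0672). All 12 heat shock genes were below 0 (median -0.22), with 0 called by edgeR or DESeq2 and 0 at an unadjusted p under 0.05. Mitochondrial genome transcripts had 12 of 13 folds below 0 and a median of -0.25. In 7 of the 13 all stressed libraries lay below all controls, against 4.11% of all genes (2 had an unadjusted p under 0.05, edgeR called 0 and DESeq2 called 1). Cholesterol and fatty acid synthesis had 15 of 16 below 0 (median -0.14, 0 called by either tool, 2 at an unadjusted p under 0.05). Unfolded protein response genes had 14 of 20 below 0 and a median of -0.11 (0 called by either tool, 3 at an unadjusted p under 0.05).

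Macrophage markers had 6 of 12 folds on each side of 0. Of 11 xenobiotic and retinoid enzymes 2 rose (18.2%), Cyp2a5 and Por, and of 16 cadherin and adhesion genes 1 rose (6.25%), Cdh13. Of all genes tested 0.388% rose. These members are described above. Lists of folliculostellate, fibroblast, lymphocyte, interferon, oxidative phosphorylation, activin and thyroid hormone response genes, and those of steroid receptors with the steroid enzymes Hsd11b1 and Hsd11b2, hypothalamic hormone receptors, prohormone processing and ion channels, held 0 calls in edgeR, with medians from -0.12 to 0.18. DESeq2 called the glucocorticoid-activating enzyme gene Hsd11b1 lower, the receptor genes Crhr1 and Avpr1b higher and the calcium channel gene Cacna1h higher, and at an unadjusted p under 0.05 the 3 lists that hold them had 2, 4 and 3 genes. Immediate early genes varied among libraries of 1 group more than between groups: their summed level ran from 1019 to 5803 CPM in controls and from 1460 to 4820 CPM after stress, and Fos had 20.8 to 488 CPM in controls. Blood also differed by library, with summed globin and Alas2 levels of 129 to 544 CPM in controls and 228 to 364 CPM after stress. Of 7 ovary markers tested, edgeR called 0 (2 at an unadjusted p under 0.05, and 0 with DESeq2). Summed levels over all 12 listed were 27.9 to 39.6 CPM in controls and 33.9 to 46.1 CPM after stress, with Fshr at 0 in all 8 libraries. The sum includes Inhbb, which is also in the activin list, so it is not specific to ovary.

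The same comparison in the other 3 pituitary sets has its own control libraries, so the 99 genes can be set beside it. In 2M-8W, 95 of the 99 had a fold of the same sign and 32 passed there as well, when 0.424% of all genes passed in that set. In 6M-8W, where 4.70% of all genes passed, 80 had the same sign and 44 passed with it. In 6M-12W, where 0.276% passed, 91 had the same sign and 18 passed. In all 3 sets, 14 of the 99 passed with the same sign, and 48 passed in none. Folds were smaller there than here for 79, 71 and 89 of the 99. The genes were chosen for their values here, so no test was made of this.

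**Figure D5:**
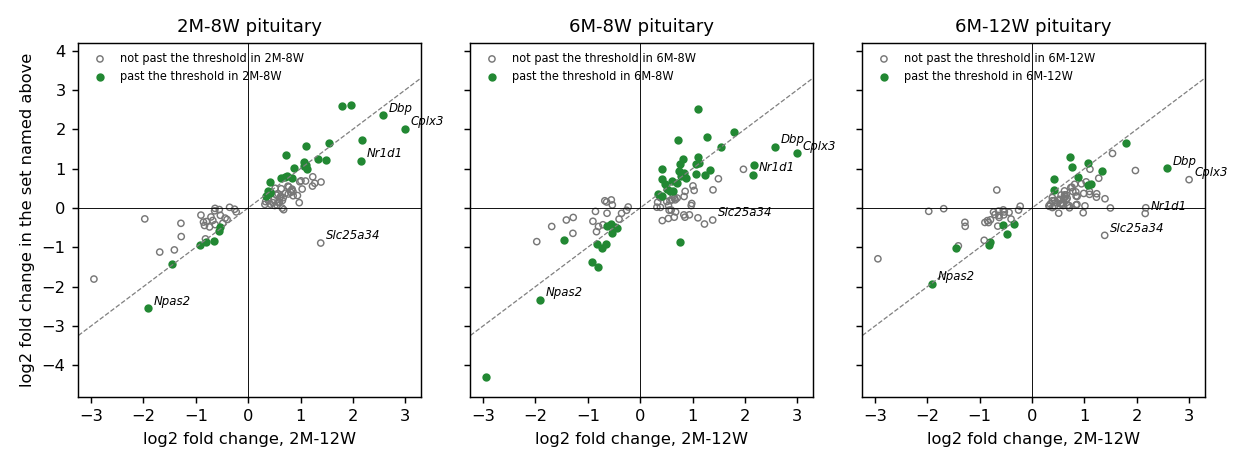
Log2 fold change in each other pituitary set (vertical axis) against the fold in 2M-12W (horizontal axis) for the genes that passed in 2M-12W, Bpifb1 left out as off the scale; filled points also passed in the set named above the panel and the dashed line marks equal folds. Most points share the sign (95, 80 and 91 of the 99 genes when Bpifb1 is counted), and Nr1d1 lies near 0 in 6M-12W (-0.14).

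Tests of the difference in stress effect found few genes. Against 2M-8W, with the same age in its titles and the shorter schedule, edgeR called 0 genes and DESeq2 called 5. At an unadjusted p under 0.05 there were 710. If the titles give the age at the start, age at collection differs along with duration, and the effects of these cannot be told apart. Against 6M-12W, the same duration at the older age, 4 passed (0.0235%), 3 with a higher effect here (0.0176%) and 1 with a lower one (0.00588%). Against the mean of the other 3 sets 5 passed (0.0294%), 3 higher (0.0176%) and 2 lower (0.0118%). Nr1d1 was in both groups of genes and was the 1 gene to keep its call in every alternative fit of both: its stress effect was higher here by 2.30 ± 0.19 than in 6M-12W (adjusted p = 1.67e-08) and by 1.53 ± 0.16 than the mean of the other 3 (adjusted p = 2.19e-06). Its level shows which groups make the difference. For 2M-8W the stressed and control means were 219 and 95.9 CPM, for 2M-12W 187 and 41.7 CPM, for 6M-8W 139 and 77.3 CPM, and for 6M-12W 178 and 196 CPM. The controls of 2M-12W were therefore the lowest of the 4 control groups, with all 4 libraries below every control of the other sets, and those of 6M-12W were the highest.

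Dbp had a stress effect higher by 1.58 ± 0.29 than in 6M-12W (adjusted p = 0.0356), and its control means followed the same order of extremes, from 19.9 CPM in 2M-12W to 58.9 CPM in 6M-12W, next to stressed means of 119.5 and 118 CPM. Tex11 repeated this: its stressed means were 1.92 and 1.97 CPM, its control means 0.416 and 1.95 CPM, and the difference 2.17 ± 0.37 (adjusted p = 0.0188). The calls for Dbp and Tex11 did not hold throughout. Dbp lost its call without controls 2, 3 or 4 or CUMS 2, 3 or 4 (adjusted p = 0.0614 to 0.131), and Tex11 without control 2, control 3 or CUMS 2 (0.0528 to 0.0756).

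Against the mean of the other 3 sets, Unc13a and Zcchc12 had lower stress effects here, by -0.64 ± 0.10 (adjusted p = 0.0105) and -0.59 ± 0.11 (adjusted p = 0.0429). Unc13a had folds of -0.07, 0.15 and -0.08 in 2M-8W, 6M-8W and 6M-12W. Tmem132d, a neural transmembrane protein gene, had a fold of 0.09 ± 0.19 here (8.28 against 7.78 CPM in controls) and of -0.98, -1.37 and -0.86 in the other sets, a difference of 1.17 ± 0.22 (adjusted p = 0.0360). Slc25a34, a mitochondrial carrier gene below the abundance limit for named genes, had a fold of 1.39 here and of -0.89, -0.31 and -0.70 elsewhere (difference 2.02 ± 0.35, adjusted p = 0.0186), at levels of 0.635 to 2.00 CPM. Leaving out 1 library at a time ended these calls for Zcchc12 without any 1 of the 8 but control 1 (0.0541 to 0.278), for Tmem132d without controls 1, 2 or 3 or CUMS 1, 2 or 3 (0.0822 to 0.210), for Slc25a34 without controls 1, 2 or 4 or CUMS 1 or 2 (0.0656 to 0.135), and for Unc13a without control 2, control 3 or CUMS 1 (0.0501 to 0.0822).

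Across the 4 sets, the folds of some clock genes were near each other and those of others were not. Tef had 1.07 here and 1.17, 1.11 and 1.14 in 2M-8W, 6M-8W and 6M-12W, and Npas2 had -1.91 beside -2.55, -2.34 and -1.93. In the same order of sets, Dbp had 2.58, 2.35, 1.56 and 1.004, Arntl -1.45, -1.42, -0.81 and -1.01, and Cry1, which passed in none of them, -0.81, -0.58, 0.32 and 0.19. Per2 had its smallest fold here, 0.72 beside 1.34, 1.72 and 1.30, but its difference from the mean of the other sets did not pass (-0.74 ± 0.19, adjusted p = 0.257). Pomc had folds of 0.92, 1.08, 0.93 and 0.95 in 2M-12W, 2M-8W, 6M-8W and 6M-12W, of which those of 2M-8W and 6M-8W passed (adjusted p = 0.0303 and 0.0197). The histone list had medians of -0.33, -0.19 and -0.13 in 2M-8W, 6M-8W and 6M-12W, with 31, 32 and 27 of 38 below 0, and the cell-cycle list medians of -0.47, -0.24 and -0.87. Cplx3 had folds of 2.01, 1.39 and 0.72 there, and Cdh13 of 1.22, 0.74 and -0.00071.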

How the data were processed

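Per the labels, a chloroform method gave total RNA, and a NEBNext Ultra II RNA kit the libraries. The authors deposited, per the file headers, raw read counts per gene and FPKM values (counts scaled by gene length and library total). The aligner, counting program, annotation and strand setting are not given in these sources. Every column of sample values was matched to a labelled sample. FPKM served to set levels of different genes side by side, and all tests used the counts.

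All 32 pituitary libraries were fitted together in edgeR 4.0.16 (R 4.3.3) with 1 coefficient per group of age, duration and treatment, after filterByExpr (17001 of 34745 genes kept) and TMM scaling. The quasi-likelihood F test was adjusted with Benjamini-Hochberg over all genes tested, at a threshold of 0.05. The biological coefficient of variation was 0.158. The SE of each fold was taken as |fold| over the root of its F statistic, and CPM, sums over lists included, are scaled with TMM. Total counts were 15946507 to 24924584 per library of the set. With genes simulated at these depths, 88% of changes of 2 times and 99% of 4 times were recovered in the stress comparison, with 4.59% false calls. The changed genes all had a mean of at least 2 CPM, and counts followed the fitted spread without outlying libraries. These rates therefore do not cover genes at lower levels or calls that rest on 1 library.

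Named genes are core clock, hormone and stress genes, the 12 highest and 12 lowest folds that passed, leaving out predicted genes, pseudogenes and those under a mean log2 CPM of 1, list members that passed, and up to 5 per direction in each difference between sets, or the 5 smallest p where none passed. Some genes that meet this rule are left unreported, also in the list counts. The members and lists were chosen with earlier results of these data known. Lists are described by counts and medians. Alternatives were DESeq2 1.42.0, RLE size factors, no filter, own groups only, a replicate block and leaving out each library. After seeing the data, fits without the 6M-12W libraries or without 2 of their controls were added. Promoters are RefSeq entries of GRCm38.p6, found for 11964 of 16985 gene names tested. Of 60 named genes, 23 overlap another gene.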

Additional observations from a re-analysis of the deposited data

Results flagged for a closer look

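In groups of 4 libraries, 1 library stood apart from the other 3 in 11 of 114 groups of named genes. The limit used gives about 1 in 20 for independent, normally spread values. These genes share the same libraries and are not independent, so the count cannot be set against that rate. Control 1 was that library in 8 of the 11. It was highest for Hrh3 (2.04 CPM; the others 0.991 to 1.15), Cry2 (92.3), Por (105.8), Mt1 (59.2), Lhb (404), Gnrhr (109; the others 82.6 to 83.4) and Crhr1 (20.03), and lowest for Fkbp5 (46.7; the others 59.4 to 61.6). Control 3 was lowest for Avpr1b (3.30). CUMS 4 was highest for Zcchc12 (137.65; the others 123 to 124.5) and for the protocadherin Pcdhga2 (37.9; the others 8.09 to 11.1), whose exons other protocadherin genes share, so its value is uncertain.

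The stress effect differed between sets by a test of the difference for the following 7 genes. Against 6M-12W these were Nr1d1 (2.30), Tex11 (2.17) and Dbp (1.58), and against the mean of the other 3 sets Slc25a34 (2.02), Nr1d1 (1.53), Tmem132d (1.17), Unc13a (-0.64) and Zcchc12 (-0.59).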

How the results depend on the processing

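Of 40 named genes that passed in the stress comparison (genes named outside the rule included, except Rims3), 14 passed under every alternative and all 40 kept their direction. Of 22 that did not pass, 6 did under at least 1 alternative. The 99 calls became 228 with DESeq2 (134 higher, 94 lower), 101 with RLE, 76 without the filter and 91 in a fit of the 8 libraries alone (50 higher, 41 lower; 49 of the 99 shared). The other added fits gave 145 without the 6M-12W libraries and 186 without 6M-12W controls 3 and 4. Leaving out 1 library gave 34 to 178. The difference from 2M-8W had 5 calls with DESeq2 and 0 in every other fit. The difference from 6M-12W went from 4 to 15 with DESeq2, 1 with own groups only, 9 without 6M-12W controls 3 and 4, and 1 to 4 without 1 library. That from the mean of the other sets went from 5 to 22, to 31 without those controls, and to 1 to 4 without 1 library, and was not run with own groups only. The cause of these shifts was not tested.

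Replicate numbers recur in both arms. Same-numbered libraries correlated by 0.218, 0.149, 0.0612 and 0.00796 in their deviations. Controls 1 and 2 were closest to the stressed library of their own number, and controls 3 and 4 were not. Whether same-numbered libraries share more than a number cannot be told from these values. With the replicate number as a block, 104 genes passed in the stress comparison (74 of the 99 shared), 0 differed from 2M-8W, 1 from 6M-12W and 2 from the mean of the other sets.

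Folds near 0 changed sign. Without 1 library they ran from -0.092 to 0.10 for Cga, -0.051 to 0.19 for Lhb, -0.058 to 0.15 for Tsc22d3, -0.089 to 0.11 for Gnrhr and -0.0060 to 0.24 for Tmem132d. Cga had 0.0016 with the block, and Gnrhr -0.00093 with DESeq2 and -0.0013 with RLE. Low read counts, as for most histone genes and Cplx3, limit precision.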
